A study of Mus musculus with 2 samples.

Results

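B-cells of the mouse parotid gland were taken from 2 single-cell RNA libraries, one of control glands and one of irradiated (IR) glands. A cell was counted as a B-cell if it held at least 3 UMIs (unique molecular identifiers, each standing for 1 captured RNA molecule) of Cd79a, Cd79b and Ms4a1 together, no UMI of Cd3d, Cd3e or Cd3g, and fewer than 5 UMIs of Jchain. The rule found 1515 B-cells among the 8664 cells kept for having 200 genes or more and no more than 5% mitochondrial UMIs. Both libraries came from wild-type female mice of the C3H strain, with the parotid glands of 2 mice pooled in each. IR mice received 6 Gy per day to the head and neck on 5 days, 30 Gy in total, at an age of 6 to 10 weeks, and their glands were dissociated with enzymes 10 months later. Control mice were not irradiated. Each condition therefore had 1 library, no test between conditions was possible, and a difference between mice cannot be told apart from a difference between conditions.

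B-cells recognise antigen through a surface receptor built from a heavy chain, a kappa or lambda light chain and the signalling chains Cd79a and Cd79b. A B-cell that has not met antigen carries the heavy chains of IgM (Ighm) and IgD (Ighd), recirculates between blood and lymphoid tissue, and presents peptides on MHC class II. After activation it can enter a germinal centre, switch to the chains of IgG, IgA or IgE, and become a memory cell or an antibody-secreting plasma cell. In salivary glands, B-cells are known for gathering in lymphoid aggregates during chronic inflammation and plasma cells for making secretory IgA.

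The control library held 772 B-cells of 3378 cells and the IR library 743 of 5286 cells. The B-cells held 2289500 UMIs in the control library, with a median of 2538.5 per cell and a range of 637 to 70778. In the IR library they held 1970282 UMIs, with a median of 2172 and a range of 509 to 46924. Depth per cell was thus similar but lower in the IR library. UMIs were summed over the B-cells of a library and are given as counts per 1e6 of these UMIs (CPM). Values in parentheses after a share (Clopper-Pearson) or a ratio (exact conditional binomial test inverted) bound the 95% interval, which covers counting error only; differences among mice are not in it. A sum of 0 UMIs is taken to allow up to 3 UMIs, which is 1.31 CPM in control and 1.52 CPM in IR B-cells. This limit is a separate rule, and the 95% Poisson interval of a 0 reaches 1.61 and 1.87 CPM. Of the cell barcodes, 12 occurred in both libraries, 3 of them in cells that passed the filters and 0 in B-cells.

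The marker limit lay near the low point between cells with and without B-cell RNA. Among cells without Cd3 UMIs and with fewer than 5 Jchain UMIs, 1183 control and 1230 IR cells had no marker UMI, and the median B-cell had 8 (control) or 9 (IR). Just outside the limit, 32 control and 53 IR cells had a marker sum of 2, and just inside it 52 and 37 cells had a sum of 3. Ighd, which the rule did not use, had a UMI in 46.9% of the control and 26.4% of the IR cells at a sum of 2. At a sum of 3 these shares were 57.7% and 64.9%. Cells just below the limit were thus partly of the same kind. A further 67 control and 104 IR cells reached the marker limit but held a Cd3 UMI, with medians of 5183 and 4134 UMIs, and only 2 control and 23 IR cells without Cd3 UMIs were left out for Jchain alone.

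**Figure D1:**
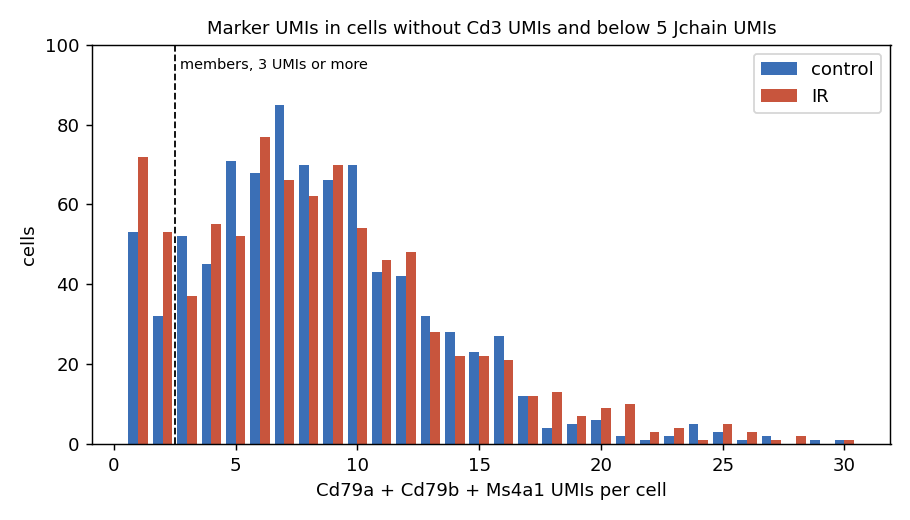
Number of cells (y axis) by the sum of Cd79a, Cd79b and Ms4a1 UMIs in the cell (x axis, sums of 1 to 30 shown), in the control (blue) and IR (red) libraries, for cells without Cd3 UMIs and with fewer than 5 Jchain UMIs. The dashed line marks the limit of 3 UMIs. Counts are low near the limit (32 control and 53 IR cells at a sum of 2, 52 and 37 at 3), and the bulk of the members lies around the medians of 8 and 9.

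The members carried the RNA of B-cells in both libraries, so the name was kept. Cd79a, which the rule used and which lies at chr7:24897381-24902197 on the plus strand of GRCm38, had a UMI in 99.1% of control and 99.5% of IR B-cells, with a median of 6 UMIs per cell in each. For genes outside the rule, T cells picked by the mirrored rule (at least 3 Cd3 UMIs and no UMI of the 3 B-cell markers, 1009 control and 2376 IR cells, median 3358 and 2629.5 UMIs) gave the background. Ebf1, a transcription factor that sets up the B-lineage, stood at 1343 CPM in control and 1146 CPM in IR B-cells and at 2.95 and 3.41 CPM in T cells. Pax5, which keeps that identity, stood at 122 and 160 CPM in B-cells, and T cells held 0 control UMIs, which allows up to 0.804 CPM, and 2 IR UMIs of it.

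By the lower of their ratios in the 2 libraries, the 10 genes outside the rule that most separated B-cells from T cells included Fcmr, Ly6d, Ebf1, Vpreb3, Gm43603, H2-DMb2, Mef2c, Fcrla and Pax5. Fcmr, the Fc receptor for IgM, led with 521 CPM in control and 605 CPM in IR B-cells, against 1 and 5 UMIs over all T cells. In all, 395 of 4210 genes (9.38%) were at least 2 times as high in B-cells as in T cells in both libraries. The MHC class II invariant chain Cd74 was the most abundant of the antigen presentation genes, at 16640 CPM in control and 17797 CPM in IR B-cells, with medians of 49 and 45 UMIs per cell. T cells held 217 and 201 CPM of Cd74.

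**Figure D2:**
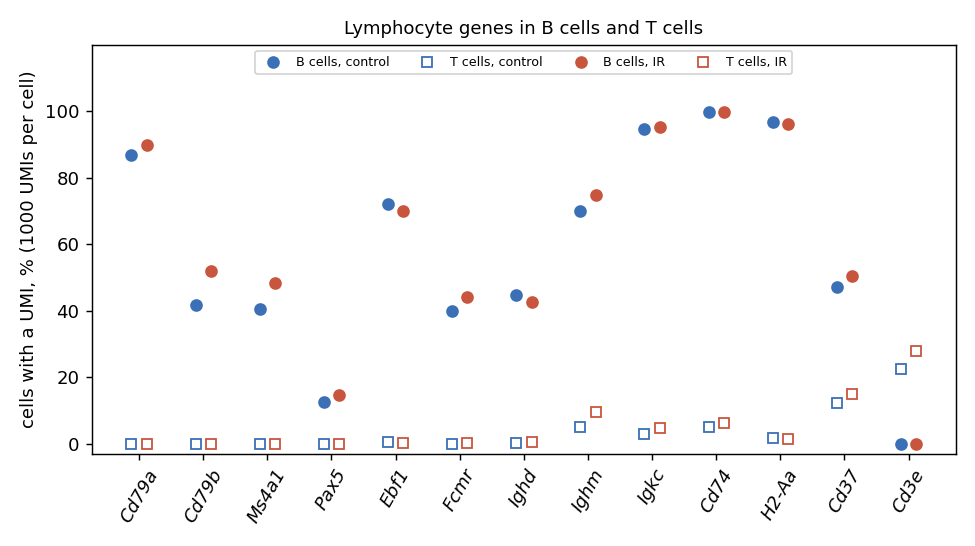
Share of cells with a UMI (y axis, %) after each cell was thinned to 1000 UMIs, for lymphocyte genes (x axis), in B-cells (filled circles) and T cells (open squares) of the control (blue) and IR (red) libraries. Cells with fewer than 1000 UMIs are left out. B-cell genes lie far above the T cells in both libraries; Cd79a, Cd79b, Ms4a1 and Cd3e were used to pick the cells.

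A minority of the members also carried RNA of other cells. Members were called rich in RNA of other lineages if they had at least 3 UMIs of macrophage, endothelial, stromal, T-cell receptor or dendritic cell genes, at least 10 UMIs of red blood cell genes, or over 20% of UMIs on secretory and duct genes. This rule was set after the values were seen. It marked 58 control B-cells (7.51%, 5.75 to 9.60) and 57 IR B-cells (7.67%, 5.86 to 9.83), which held 17.8% and 18.0% of all B-cell UMIs. A few such cells set some of the sums. A single IR member held 1746 of the 1805 UMIs of Lyz2, the lysozyme of macrophages, 2 control members held 85.4% of the UMIs of the duct gene Dcpp1, and 8 control members held 93.2% of those of the haemoglobin gene Hbb-bs. Values without these members are given beside the main results. T-cell receptor RNA was low, with 2 control and 4 IR UMIs of Trac and 23 and 32 UMIs of Trbc2 over all members. Secretory RNA was found in every member: the acinar gene Bpifa2 had a UMI in all 772 and 743 B-cells, and the median B-cell had 5.33% and 5.04% of its UMIs on 16 secretory and duct genes.

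B-cells made up a smaller share of the IR library. They were 22.9% (21.4 to 24.3) of control cells and 14.1% (13.1 to 15.02) of IR cells, a ratio of IR over control of 0.615 (0.555 to 0.681). T cells were 29.9% of control and 44.9% of IR cells, so that control glands gave 0.765 B-cells per T cell and IR glands 0.313, a ratio of 0.409 (0.369 to 0.453). Of the cells picked as B-cells, T cells or cells high in Jchain, which leaves epithelial cells out of the denominator, B-cells were 43.2% and 23.5%. A share of captured cells depends on how well each type came out of the tissue, and no count of B-cells per gland can be had from it. Cells high in Jchain, the chain that joins IgA or IgM units in plasma cells, were more frequent relative to B-cells in the IR library, with 6 control cells (0.777 per 100 B-cells) and 36 IR cells (4.85 per 100), a ratio of 6.23 (2.60 to 18.1). Of all kept cells they were 0.178% (0.0652 to 0.386) and 0.681% (0.477 to 0.942), a smaller difference, since B-cells were the less frequent in the IR library.

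Most B-cells of both libraries carried unswitched heavy chains. UMIs of both Ighm and Ighd were found in 540 control B-cells (69.9%, 66.6 to 73.2) and 461 IR B-cells (62.0%, 58.4 to 65.5). Ighm without Ighd was found in 170 (22.0%, 19.1 to 25.1) and 207 (27.9%, 24.7 to 31.2). The IR library thus held fewer B-cells with detected Ighd, but its cells were shallower: with each cell thinned to 1000 UMIs, Ighd was found in 44.7% (41.1 to 48.3) of control and 42.7% (39.0 to 46.4) of IR B-cells, and these intervals overlap. T cells, which should lack both genes, carried an Ighm UMI at rates of 16.2% (control) and 20.9% (IR), and an Ighd UMI in 0.892% and 0.926%. Ighm stood at 1427 CPM in control and 1914 CPM in IR B-cells, a ratio of 1.34 (1.28 to 1.41), and Ighd at 561 and 524 CPM, a ratio of 0.933 (0.859 to 1.01). Of the B-cells with at least 3 heavy chain UMIs, Ighm was the leading chain in 466 of 623 control (74.8%, 71.2 to 78.2) and 468 of 581 IR cells (80.6%, 77.1 to 83.7), and Ighd in 15.9% and 12.6%.

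Switched chains were rare, with a higher share in the IR library. An Ighg, Igha or Ighe UMI was found in 32 control B-cells (4.15%, 2.85 to 5.80) and 56 IR B-cells (7.54%, 5.74 to 9.68), against 0.991% of control and 0.337% of IR T cells. At 1000 UMIs per cell the shares were 1.32% (0.636 to 2.42) and 3.31% (2.14 to 4.89), with intervals that overlap. Those with a switched chain and neither Ighm nor Ighd numbered 4 (0.518%, 0.141 to 1.32) and 18 (2.42%, 1.44 to 3.80). Igha, the heavy chain of IgA, had 11 UMIs in 6 control cells and 47 UMIs in 14 IR cells. Ighg3 had 29 UMIs in 22 control and 26 UMIs in 24 IR cells, and Ighg2b 15 UMIs in 5 and 24 UMIs in 12 cells. Ighg1 had no UMI in the control B-cells, which allows up to 1.31 CPM, and 6 UMIs in 4 IR cells. Cells high in Jchain were also more frequent in the IR library, and the part of their RNA was not tested. Some of the 36 IR cells of this kind also carried B-cell RNA. Summed over all 36, Ms4a1 stood at 536 CPM, Ebf1 at 300.3 CPM and H2-Aa at 1115 CPM. A UMI of these genes was found in 50%, 44.4% and 58.3% of the 36 cells. The 6 control cells had 0 UMIs of Ms4a1, 0 of Ebf1 and 3 of H2-Aa.

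**Figure D3:**
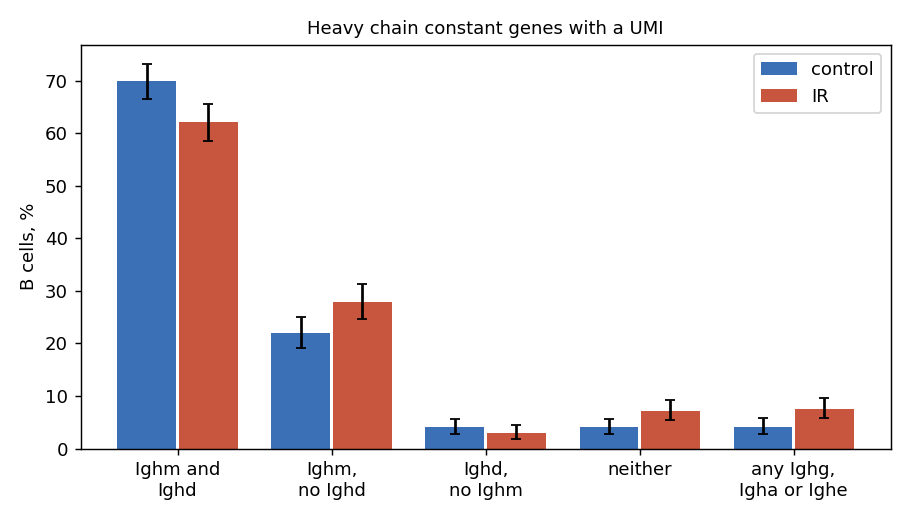
Share of B-cells (y axis, %) with UMIs of the heavy chain genes named on the x axis, in the control (blue, 772 cells) and IR (red, 743 cells) libraries, with 95% Clopper-Pearson intervals that cover counting error only. The classes of the first 4 pairs of bars exclude each other; the last pair, 4.15% and 7.54%, counts switched chains in any cell.

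Kappa light chains dominated in both libraries. Igkc had a median of 16 UMIs per B-cell in each. Lambda chains (Iglc1 to Iglc4) took 8.57% (8.14 to 9.02) of light chain UMIs in control and 12.5% (11.99 to 13.02) in IR B-cells. The number of lambda cells did not follow: 27 of 757 control (3.57%, 2.36 to 5.15) and 23 of 724 IR B-cells (3.18%, 2.02 to 4.73) had more lambda than kappa UMIs. The gap lay in the cells with more kappa, where lambda chains took 6.13% (control) and 10.2% (IR) of light chain UMIs. Iglc1 stood at 181 and 278 CPM (1.53, 1.35 to 1.75) and Iglc2 at 306 and 556 CPM (1.82, 1.65 to 2.001), but Iglc2 and Iglc3 are near-identical and their split is uncertain. Variable segments were barely sampled in these libraries: 71 control and 52 IR UMIs fell on heavy chain segments, led by Ighv1-82 with 9 and 5 UMIs. On kappa segments there were 48 and 42 UMIs, with 5 and 3 on Igkv12-89, and on lambda segments 9 and 16, with 8 and 10 on Iglv3. These families share sequence, no segment could be called expanded from such counts, and further segments with 3 to 5 UMIs were Ighv1-33, Ighv7-3, Igkv18-36 and Igkv3-4 in the control and Ighv2-9-1, Ighv1-20, Igkv1-135 and Igkv15-103 in the IR library.

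Across genes, most levels were close between the libraries. Of 4213 genes with at least 100 UMIs over both and at least 1 in each, without variable segments, 394 (9.35%) were at least 1.5 times as high in IR B-cells and 125 (2.97%) at most 1/1.5 times. The median ratio of all genes was 1.09, or 0.13 on the log2 scale, so the split, with 75.9% of the genes past the limit higher, depends on the scaling. With TMM factors, which centre on the bulk of the genes, the median became 0.975, 178 genes were higher and 260 lower, and the higher share was 40.6%. With the median of all genes set to 1 there were 207 and 221 (48.4% higher), and without abundant genes in the total 315 and 155 (67.0%). List medians below are therefore to be read against 1.09. Without the members rich in RNA of other lineages, 298 of 3849 genes (7.74%) were higher and 130 (3.38%) lower. T cells, which had more UMIs, gave 826 of 7074 genes (11.7%) higher and 176 (2.49%) lower.

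The 10 highest ratios included those of Rgs1, Cd180 and Hs3st1. Rgs1, which dampens signals from chemokine receptors (chr1:144242296-144249242, minus strand), stood at 21.4 CPM in control and 120 CPM in IR B-cells, a ratio of 5.62 (4.12 to 7.81). Cd180, a relative of the Toll-like receptors on B-cells (chr13:102693558-102739629, plus strand), stood at 25.3 and 107 CPM, a ratio of 4.23 (3.15 to 5.76). Hs3st1, a heparan sulphate sulphotransferase, stood at 38.4 and 108 CPM, a ratio of 2.80 (2.17 to 3.63). The UMIs of these 3 genes were spread over a minority of the cells and not held by a few. Rgs1 had a UMI in 28 control and 103 IR B-cells, Cd180 in 52 and 148, and Hs3st1 in 76 and 144. In cells thinned to 1000 UMIs, Rgs1 was found in 1.98% and 8.15% of B-cells, Cd180 in 2.51% and 10.5% and Hs3st1 in 3.97% and 9.81%, and the highest count in any B-cell was 14, 5 and 5 UMIs. All T cells together held 3 control and 5 IR UMIs of Cd180.

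The clock gene Per1 stood at 17.9 and 56.8 CPM (ratio 3.17, 2.20 to 4.66) and the unnamed transcript Gm26669 at 10.5 and 39.6 CPM (3.78, 2.36 to 6.24). Lck, a kinase best known from T cells, stood at 13.1 and 38.6 CPM (2.94, 1.91 to 4.65), far below the 198 and 295 CPM of T cells. A single IR member held most of the UMIs of Lyz2 and of C1qa (75 of 106). Lyz2 had a ratio of 72.3 in all members and 1.79 (0.849 to 3.92) without those rich in RNA of other lineages. The complement gene C1qa went from 8.80 to 1.17 (0.268 to 5.06). The secreted protein gene Odam, of which the top IR member held 208 of 471 UMIs, had a ratio of 8.05 and was still among the 10 highest without these members, at 2.68 (1.76 to 4.17). Its shares of cells thinned to 1000 UMIs were 2.12% and 6.08%. Without these members the 10 highest also held Gpr183, a receptor for oxysterols that steers B-cells towards the edge of follicles (ratio 3.31, 2.503 to 4.42), the pseudokinase gene Trib2 (3.30, 2.15 to 5.19), the non-coding transcript A930011G23Rik (2.92, 2.17 to 3.98), the transcription factor gene Fos (2.83, 2.38 to 3.37) and the small GTPase gene Rhob (2.75, 2.16 to 3.54). Most of these genes were also higher in IR T cells. The T-cell ratios were 2.20 for Gpr183, 1.87 for Trib2, 1.23 for A930011G23Rik, 2.66 for Fos and 2.75 for Rhob. They were 2.03 for Per1, 3.32 for Gm26669, 1.49 for Lck and 2.96 for Odam.

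At the other end, some genes were low in IR B-cells both with and without the members rich in other RNA. Klf3, a transcriptional repressor of the Krüppel-like family (chr5:64803388-64832901, plus strand), had 458 UMIs in control and 145 UMIs (73.6 CPM) in IR B-cells, a ratio of 0.368 (0.303 to 0.444), and its share of thinned cells was 17.6% and 5.52%. In T cells Klf3 stood at 190 and 189 CPM. Hsph1, a cochaperone of the Hsp110 family, is described with the other chaperones below. Gm42418, which overlaps ribosomal RNA sequence, had a ratio of 0.349 (0.335 to 0.364) in B-cells and 0.371 in T cells. The tubulin gene Tubb2a had a ratio of 0.391 (0.294 to 0.515) and the interferon-induced gene Ifi27l2a one of 0.377 (0.340 to 0.417).

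The haemoglobin and several of the duct genes at the bottom of the ranking had ratios that depended on the members counted. Hbb-bt, Hba-a1 and Hbb-bs had ratios of 0.0590, 0.0689 and 0.0767 in all members and of 0.561, 0.535 and 0.609 without those rich in other RNA. For Dcpp1 the ratio went from 0.117 to 0.625, for Dcpp3 from 0.168 to 0.430 and for Wfdc18 from 0.246 to 0.864. Dcpp2 went from 0.201 to 0.369 (0.270 to 0.499) and was still among the 10 lowest, with a UMI in 155 control and 67 IR cells. Several of these directions turned under other choices: without a mitochondrial limit Dcpp2 was at 3.36, Dcpp3 at 2.77 and Klk1 at 5.35, and Wfdc18 was at 1.06 without the 5% of members with most UMIs. Leaving out the members rich in other RNA lowered the ratio of Hspb1, a small heat shock protein, which went from 0.517 to 0.0797 (0.0336 to 0.162), of the galectin gene Lgals3, from 0.787 to 0.343 (0.245 to 0.472), and less so of the kallikrein gene Klk1, from 0.420 to 0.386.

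**Figure D4:**
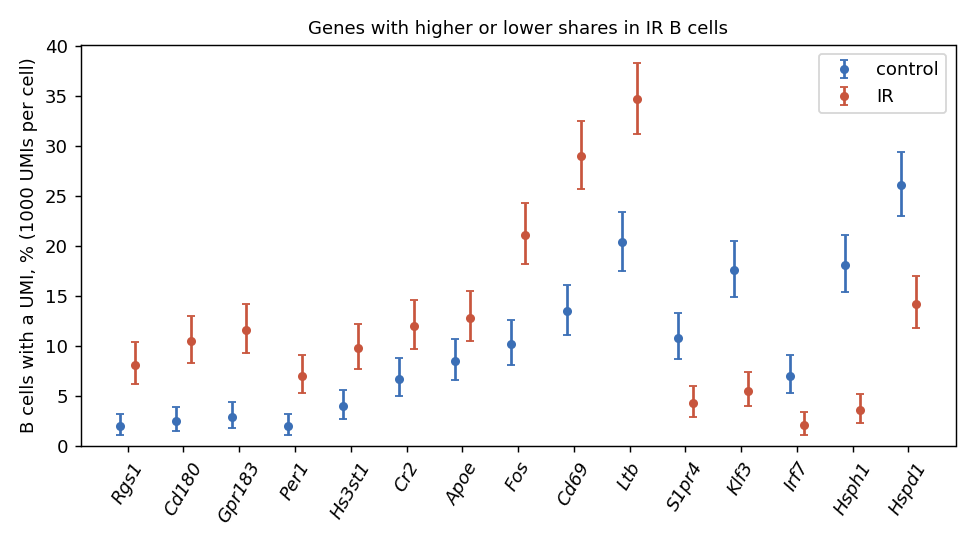
Share of B-cells with a UMI (y axis, %) after each was thinned to 1000 UMIs, in the control (blue) and IR (red) libraries, for 15 genes with higher or lower ratios (x axis), with 95% Clopper-Pearson intervals that cover counting error only. The intervals meet for Apoe (8.47% and 12.8%) and are widely apart for Cd180 (2.51% and 10.5%) and Hsph1 (18.1% and 3.59%).

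Heat shock genes were lower in IR B-cells. These genes code for chaperones that keep proteins folded and are switched on together by heat shock factor 1, which binds inverted repeats of the bases GAA. All 10 genes of the list were below 1, with a median ratio of 0.567, and 7 of 10 were at most 1/1.5 times, against 2.97% of all genes. Hsph1 (chr5:149614287-149636376, minus strand) had 521 UMIs (228 CPM) in control and 66 UMIs (33.5 CPM) in IR B-cells, a ratio of 0.147 (0.112 to 0.190), and was found in 37.3% and 7.67% of the cells. Hsp90aa1, the inducible cytosolic Hsp90, stood at 1417 and 636 CPM, a ratio of 0.449 (0.420 to 0.479), and the median cell held 3 and 1 UMIs of it. Both mitochondrial chaperonin subunits were lower, Hspd1 at 330 and 175 CPM (0.530, 0.466 to 0.603) and Hspe1 at 603 and 369 CPM (0.612, 0.558 to 0.670).

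The inducible Hsp70 genes Hspa1a (120 and 59.9 CPM) and Hspa1b (58.5 and 29.4 CPM) had ratios of 0.499 and 0.503, and since they are near-identical their split is uncertain. Without a mitochondrial limit Hspa1b was at 1.04 and the median of the list at 0.708. Dnaja1, a cochaperone of Hsp70, had a ratio of 0.604. The constitutive forms lay nearer to 1, with Hsp90ab1 at 0.748 and Hspa8 at 0.866, as did the cochaperone gene Dnajb1 at 0.819. T cells showed the same list at a median ratio of 0.548, with Hsph1 at 0.212 and Hsp90aa1 at 0.385, so the lower level was seen in both kinds of lymphocyte. Under the 3 other scalings 7 or 8 of the 10 genes were at most 1/1.5 times in B-cells. Of all genes, 3.68% were without abundant genes in the total, 6.17% with TMM factors and 5.25% with the median of all genes set to 1. Without members rich in RNA of other lineages 6 of the 9 left were at most 1/1.5 times, against 3.38% of all genes.

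The promoters of these genes are shown because the genes differed in the same direction. Windows from 250 bases before to 50 after each start site (RefSeq, GRCm38.p6) were searched on both strands for 3 repeats (GAANNTTCNNGAA and its complement TTCNNGAANNTTC) and for 2 (GAANNTTC, which is its own complement and lies within the longer motif). Of the 10 genes, 7 had a window. The longer motif was found in 3 of these, Hsph1, Hspe1 and Hspd1, and in 179 of all 27025 genes with a window (0.662%). The shorter one was found in 6 of the 7, the same 3 with Hspa1a, Hspa1b and Dnaja1, and in 2442 of all genes (9.04%). In the lines below, capitals mark the bases of the matches and each line runs 5′ to 3′ on the strand of its gene; the first 2 lines are Hsph1 (chr5:149636282-149636306, minus strand) and Hspe1 (chr1:55088053-55088082, plus strand), the third is the same stretch read for Hspd1 on the minus strand, since both genes share this promoter, and the last is Hspa1a (chr17:34972247-34972266, minus strand), which Hspa1b repeats at chr17:34959329-34959348.
Hsph1: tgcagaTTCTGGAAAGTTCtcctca
Hspe1: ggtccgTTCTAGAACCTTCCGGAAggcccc
Hspd1: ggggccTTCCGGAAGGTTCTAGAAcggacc
Hspa1a: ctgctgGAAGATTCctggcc
A match describes the letters of the window only.

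Interferon-stimulated genes were also lower in sum. Their UMIs came to 1070 CPM in control and 528 CPM in IR B-cells. Only 6 of the 18 genes had 100 UMIs, with a median ratio of 0.739, and 3 of the 6 were at most 1/1.5 times, against 2.97% of all genes. Among these were Ifi27l2a at 678 and 256 CPM and the transcription factor gene Irf7 at 69.9 and 30.96 CPM (0.443, 0.324 to 0.599). The 3 nearest to 1 were the surface protein gene Bst2 at 0.9498, Irf1 at 0.875 and Ifi203 at 0.854. Without members rich in RNA of other lineages, Bst2 was at 0.505 and the median at 0.525. In T cells the median of the same 6 genes was 1.11, and Ifi27l2a and Irf7 were lower at 0.433 and 0.550.

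Of the 9 MHC class II genes counted, 0 passed 1.5 times either way, where 9.35% of all genes were higher and 2.97% lower by this limit. Their ratios ran from 0.931 (H2-DMb1) to 1.24 (H2-DMb2 and H2-DMa, parts of the peptide loading machinery), with a median of 1.07. H2-Aa stood at 3900 and 3826 CPM. Among the 9 MHC class I genes the ratios ran from 0.755 for H2-K1 (2277 and 1720 CPM) and 0.846 for H2-D1 to 1.26 for the loading factor Tapbp and 1.37 for the transporter Tap2, with a median of 1.04. H2-K1 had a ratio of 0.987 in T cells.

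Immediate early genes, which cells switch on within minutes of stimulation and also during tissue dissociation, were higher in IR B-cells. Of 21 genes, 11 were at least 1.5 times as high, against 9.35% of all genes, none was at most 1/1.5 times, and the median ratio was 1.53. Egr1 stood at 49.8 and 130 CPM (2.61, 2.08 to 3.28), Myc at 30.6 and 78.7 CPM (2.57, 1.93 to 3.46) and Cd69, a surface protein of recent activation that holds lymphocytes in tissue, at 133 and 338 CPM (2.54, 2.21 to 2.92). Cd69 was found in 13.5% of control and 29.0% of IR B-cells thinned to 1000 UMIs. The list was not uniform: Btg2 (0.875) and Ier2 (0.883) lay below 1, and the abundant Jund (2466 and 2751 CPM) and Junb (1470 and 1684 CPM) were at 1.12 and 1.15. In T cells the median was 1.59, with Egr1 at 1.08 and Jun at 3.23 against 1.497 in B-cells. With TMM factors or the median of all genes set to 1, 9 of the 21 genes were at least 1.5 times as high and none was at most 1/1.5 times. The shares of all genes at least 1.5 times as high were then 4.23% and 4.91%. Without members rich in RNA of other lineages 13 of the 21 genes were at least 1.5 times as high, against 7.74% of all genes.

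**Figure D5:**
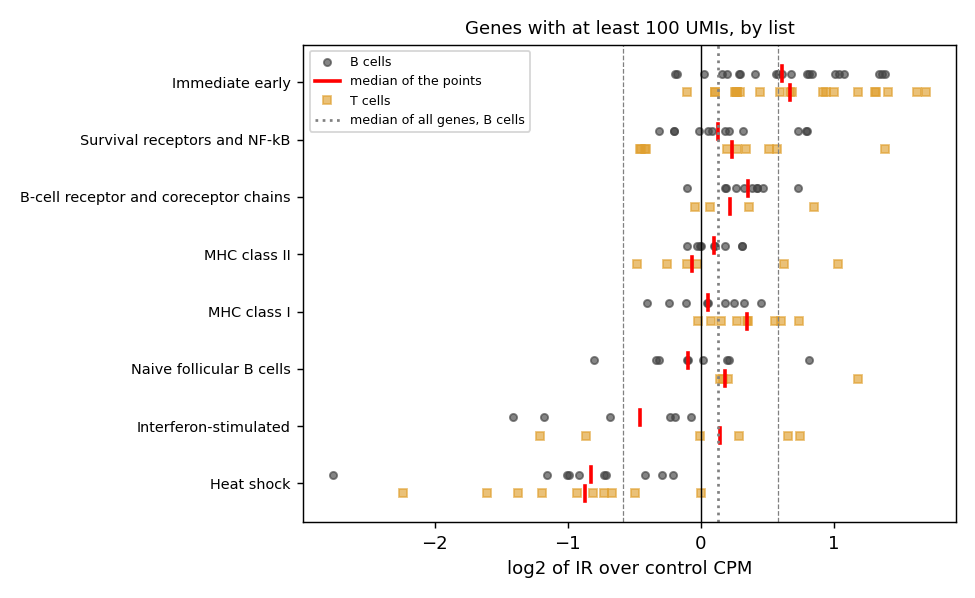
Log2 of the ratio of IR over control CPM (x axis) for each gene with at least 100 UMIs in the cell type shown and in B-cells, by gene list (y axis), in B-cells (dark circles) and T cells (orange squares). Red bars are the medians of the points, dashed lines mark 1.5 times either way and the dotted line is the median of all genes in B-cells (0.13). Heat shock genes lie to the left and immediate early genes to the right in both cell types.

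Of the B-cell receptor and its coreceptors, all 10 genes could be compared, with a median ratio of 1.28. This median includes Cd79a, Cd79b and Ms4a1, which the rule used. Only Cr2, the complement receptor CD21, was at least 1.5 times as high, at 69.0 and 115 CPM (1.66, 1.35 to 2.05), followed by the rule genes Ms4a1 (1.39) and Cd79b (1.34), whose levels the selection used. Ighd was the lowest at 0.933, and Igkc and the rule gene Cd79a were both at 1.14. With TMM factors 0 of the 10 were at least 1.5 times as high, against 4.23% of all genes. Downstream of the receptor, 1 of 11 signalling genes was at least 1.5 times as high, against 9.35% of all genes. This was Rasgrp3 at 1.51 (1.19 to 1.92), next to the adaptor Blnk at 1.48, and 0 genes of the list were at least 1.5 times as high under any of the 3 other scalings or without the members rich in RNA of other lineages. The adaptor genes Pik3ap1 (0.747, and 0.666 with TMM factors, at most 1/1.5 times) and Vav1 (0.830) were the lowest, and the kinases Syk (1.10), Lyn (0.883) and Btk (0.905) lay close to 1. Of 7 genes on the list of inhibitory receptors, 1 was at least 1.5 times as high, against 9.35% of all genes. This was the phosphatase gene Ptpn6, not itself a receptor, at 99.1 and 197 CPM (1.99, 1.69 to 2.36). Fcrl1 was at 1.44, Fcrla at 1.04 and Cd22 at 1.21. Ptpn6 had a ratio of 2.33 in T cells.

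Of the 15 B-lineage transcription factors, Ikzf1, which opens lymphoid genes early in development, was the highest at 44.1 and 89.3 CPM (2.02, 1.58 to 2.61), and Tcf3 followed at 1.503 (1.14 to 1.995). Ebf1 (0.854, 0.808 to 0.902) and Pou2f2 (0.904) were the lowest, and the median was 1.17. Pax5 was at 1.31 (1.11 to 1.55). These 2 of 15 genes compare with 9.35% of all genes at least 1.5 times as high. With TMM factors 1 of the 15 genes was, against 4.23% of all genes, and the median was 1.04.

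Of 9 genes of naive follicular B-cells, 1 was at least 1.5 times as high and 1 at most 1/1.5 times, against 9.35% and 2.97% of all genes. The higher one was Klf2, a factor that keeps lymphocytes in circulation, at 847 and 1490 CPM (1.76, 1.66 to 1.86). The low affinity IgE receptor gene Fcer2a (1.15) and Fcmr (1.16) were slightly above 1, S1pr1, which guides exit into lymph, was at 0.794, and the median was 0.934. Of 14 homing genes, 4 were at least 1.5 times as high (Gpr183 at 2.64, Itgal at 1.76, Cd44 at 1.66 and the chemokine receptor Cxcr4 at 1.65) and 2 at most 1/1.5 times, among them S1pr4 at 95.2 and 49.7 CPM (0.522, 0.407 to 0.666). The shares of all genes were 9.35% and 2.97%. The genes at least 1.5 times as high numbered 2 of 14 with TMM factors, against 4.23% of all genes, and 3 of 12 without the members rich in RNA of other lineages, against 7.74%. The follicle receptor Cxcr5 (0.934) and the lymph node receptor Ccr7 (1.01) were near 1. In T cells S1pr4 was at 0.682 and Klf2 at 2.27.

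Of 12 survival genes, 3 were at least 1.5 times as high, against 9.35% of all genes. These were the anti-apoptotic Bcl2 with 87 and 130 UMIs (1.74, 1.31 to 2.30), the NF-kB inhibitor Tnfaip3 at 1.74 (1.34 to 2.26) and Tnfrsf13b, which binds BAFF and APRIL, at 1.66 (1.20 to 2.29). With TMM factors 2 of the 12 passed, against 4.23% of all genes, and Tnfrsf13b was at 1.48. The main BAFF receptor gene Tnfrsf13c was lower at 413 and 332 CPM (0.804, 0.727 to 0.889), and Rel was next at 0.871. Of 10 ligand genes only 2 had 100 UMIs. Ltb, the lymphotoxin chain that organises lymphoid tissue, stood at 244 and 462 CPM (1.90, 1.70 to 2.11), and Tgfb1 at 420 and 351 CPM (0.836). Ltb had a ratio of 2.10 in T cells.

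Genes of B-cell subsets were too sparse for most comparisons. Of 4 marginal zone genes counted, Notch2 was at 1.85 (1.33 to 2.59) and Cr2 at 1.66, while Cd9 and Dtx1 were both at 1.12. No germinal centre gene reached 100 UMIs. Bcl6, the factor that directs the germinal centre, had 11 UMIs in 11 control B-cells and 36 UMIs in 34 IR B-cells, and Rgs13 had 11 UMIs in 7 and 58 UMIs in 17 cells. Fas, a death receptor, had 19 UMIs in 9 and 17 UMIs in 15 cells (1.04, 0.508 to 2.11), S1pr2 had 3 and 7 UMIs and Gcsam 1 and 0. Mef2b had no UMI in either library, which allows up to 1.31 and 1.52 CPM. UMIs of at least 2 of the 7 germinal centre genes were found together in 3 control B-cells (0.389%, 0.0802 to 1.13) and 13 IR B-cells (1.75%, 0.935 to 2.97), of which 1 and 3 were rich in RNA of other lineages. These cells were deeper than most, with medians of 6714 and 4115 UMIs. The 7 genes are not particular to B-cells: they summed to 20.5 and 69.5 CPM in B-cells and to 35.7 and 34.6 CPM in T cells.

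Of the B-1 genes, Itgb1 alone had 100 UMIs (1.42, 0.991 to 2.05). Bhlhe41, a factor of B-1 cells, had 18 UMIs in 14 control and 62 UMIs in 46 IR B-cells, but Cd5, the marker of B-1a cells, had 0 and 2 UMIs. Of the memory list, Zbtb20 was at 1.34 and Cd86 at 1.01, and Itgax and Tbx21, markers of age-associated B-cells, had 1 to 6 UMIs per library. Among plasma cell genes, Irf4 was the highest at 25.8 and 56.3 CPM (2.19, 1.58 to 3.05), followed by Mzb1 at 1.28, with Slamf7 at 1.18 and Xbp1 at 1.01. The members were few in cycle: Mki67 had 6 UMIs in 4 control and 12 UMIs in 5 IR B-cells, and Stmn1, the only cell cycle gene counted, was at 0.898.

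Apoe, an apolipoprotein that macrophages make in quantity, was higher in IR B-cells, at 301 and 879 CPM, a ratio of 2.92 (2.67 to 3.20). Its UMIs were concentrated in a few cells. The top member held 215 of 689 control and 468 of 1732 IR UMIs, and the top 8 members held 56.3% and 58.3%. In thinned cells, an Apoe UMI was found in 8.47% (6.58 to 10.7) of control and 12.8% (10.5 to 15.5) of IR B-cells. These intervals overlap. The Apoe CPM remained higher without the members rich in RNA of other lineages (2.60, 2.29 to 2.96), while T cells had a ratio of 0.711, at 67.8 and 48.3 CPM. At least 5 Apoe UMIs were found in 31 control B-cells (4.02%, 2.74 to 5.66) and 61 IR B-cells (8.21%, 6.34 to 10.4). Of these, 22 and 52 were not rich in other RNA. Cells with most of their UMIs on secretory genes were also higher in Apoe in the IR library, at 15.98 and 42.7 CPM. Macrophages were lower, at 9159 CPM in the control and 6923 CPM in the IR library. The 8 other macrophage genes summed to 28.4 CPM in control and 1054 CPM in IR B-cells. Lyz2 was the most abundant of them with 29 and 1805 UMIs. The complement genes C1qa, C1qb and C1qc had 14 and 106, 4 and 84, and 7 and 42 UMIs. Csf1r had 0 and 16 UMIs, Adgre1 1 and 5, and Fcgr1 0 and 1. Without the members rich in RNA of other lineages these genes summed to 13.8 and 21.04 CPM, where Apoe still had 351 and 783 UMIs. The part of macrophage RNA in the Apoe values was not tested.

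Within each library, B-cells with Ighm but no Ighd differed from those with Ighd in a few genes. The comparison was made without members rich in other RNA, over 533 and 150 control and 449 and 187 IR cells. Apoe was higher in the cells without Ighd in both libraries, at 142 against 350 CPM in the control (ratio 2.46, 1.97 to 3.06) and 297 against 810 CPM in the IR library (2.73, 2.34 to 3.18). Cd9 (2.86 and 1.47) and Mzb1 (1.48 and 1.42) followed the same direction, and Fcer2a the opposite (0.608 and 0.599). The other genes compared that had the same direction in both libraries and intervals off 1, apart from Ighd itself, were Jchain (3.97 and 4.10, on 8 to 15 UMIs per set of cells), Ighm, which the split used (1.12 and 1.25), Fcmr (0.783 and 0.864) and Cd74 (0.907 and 0.949). The rule for B-cells kept Jchain below 5 UMIs per cell, so its ratios describe only the range left by that selection. Klf2 was at 0.630 (0.573 to 0.693) in the IR library and at 0.970 (0.863 to 1.09) in the control, and the difference was not tested. Rgs13 had 42 UMIs in the 187 IR cells without Ighd and 12 in the 449 with it (7.65, 3.95 to 15.97), and 5 and 5 UMIs in the 150 and 533 control cells (3.53, 0.812 to 15.3). Cd180 did not follow this split, with ratios of 1.39 (0.671 to 2.71) and 0.976 (0.694 to 1.36).

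Of 8 p53 targets, genes switched on by DNA damage, only Mdm2 was at least 1.5 times as high, against 9.35% of all genes, at 36.7 and 55.8 CPM (1.52, 1.14 to 2.05), with Bax at 1.49, and Cdkn1a (0.773, 0.625 to 0.954) and Bbc3 (0.857) were the lowest. The median of 1.12 was close to that of all genes. Under each of the 3 other scalings 0 of the 8 passed 1.5 times, and without the members rich in RNA of other lineages 2 of 7 did, against 7.74% of all genes, with a median of 0.959 where that of all genes was 1.07. Of 12 actin genes, Pfn1 was at 1.69 (1.57 to 1.81), Actb at 1.43 with 13 and 16 UMIs in the median cell, Actg1 at 0.920 and Tmsb10 at 0.673, and the median was 1.17. Of 14 nuclear genes of the respiratory chain, 1 was at most 1/1.5 times, against 2.97% of all genes, Cox6c at 0.633 (0.544 to 0.735), near Cox7c at 0.674, and Atp5a1 (1.22) and Cox4i1 (1.14) were the highest, with a median of 0.934. The count at most 1/1.5 times was 4 with TMM factors, 3 with the median of ratios and 2 without abundant genes in the total, where 6.17%, 5.25% and 3.68% of all genes were.

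Genes of other immune and of stromal and endothelial cells were mostly at low counts, while secretory RNA was abundant in ordinary members too. The 6 natural killer cell genes had 5 control and 11 IR UMIs in all, and the 8 dendritic cell genes summed to 80 and 117 UMIs. Of the 10 T-cell genes, Cd3d, Cd3e and Cd3g are at 0 by the rule, and of the other 7 only Lck and Cd2 (305 and 226 CPM, ratio 0.740) had 100 UMIs. Pecam1 was the only endothelial gene with 100 UMIs (1.59), and Dcn the only stromal one (0.678), with 168 UMIs in 9 control and 98 UMIs in 3 IR cells, of which 8 and 1 UMIs were left without the members rich in RNA of other lineages. The 16 secretory and duct genes summed to 117949 CPM in control and 101498 CPM in IR B-cells. Of the 13 with 100 UMIs, 4 were at least 1.5 times as high, among them Odam and the proline-rich protein gene Prb1 (1.79), against 9.35% of all genes, and 5 at most 1/1.5 times, against 2.97%, with a median of 1.12. Without the members rich in RNA of other lineages the sums were 57274 and 51298 CPM, 2 of 11 genes were at least 1.5 times as high and 4 at most 1/1.5 times, against 7.74% and 3.38% of all genes, and the median was 0.949. Smr3a, at 0.482, differed as in T cells (0.497). Red blood cell genes summed to 14117 and 1031 CPM, and to 1046 and 611 CPM without all members rich in RNA of other lineages.

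Set against T cells, 296 of 4064 genes (7.28%) had a ratio of IR over control in B-cells that was past 1.5 times that in T cells either way. For Klf3 the B-cell ratio was 0.370 (0.300 to 0.455) times that of T cells. For Rgs1, which T cells express more (201 and 353 CPM), it was 3.20 (2.33 to 4.40) times, and for Apoe 4.11 (3.41 to 4.94) times. Egr1 was at 2.42 (1.78 to 3.29) times and Jun at 0.463 (0.403 to 0.531) times. Hsph1 (0.693, 0.525 to 0.914) and Ifi27l2a (0.870, 0.775 to 0.977) differed less between the cell types than within them, and Cd180 (4.79, 1.11 to 20.6) rested on 8 T-cell UMIs in all.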

How the data were processed

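Single-cell RNA of enzymatically dissociated parotid glands was measured in 1 library per condition. The authors made the UMI counts with Cell Ranger 3.0.1 on mm10, per the submitters' processing notes, which also name Seurat 3. The deposited matrices hold raw counts of 48825 features, of which 41269 IDs matched GENCODE M21 with their version. With 1 library per condition, no test between conditions was run.

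Cells with at least 200 genes and at most 5% mitochondrial UMIs were kept. UMIs were summed over the B-cells of each library and scaled to CPM, with features of the same symbol added up. Genes needed 100 UMIs over both libraries and 1 in each. Since there was no test, 1.5 times either way served as a rule of size. The members and the 30 gene lists were chosen with earlier results of these data known. Genes were named if they were B-cell markers, among the 2 highest or 2 lowest ratios of their list, among the 10 highest or lowest ratios of all genes or the 10 highest B over T ratios, or among the 3 most used variable segments. The 10 highest and lowest without members rich in RNA of other lineages, and further members named for their role, were added after the values were seen. Some genes that this rule names are not reported here.

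To compare shares at equal depth, cells were thinned to 1000 UMIs, which kept 756 control and 724 IR B-cells. No clustering or doublet caller was run. Possible doublets were handled by the limit on Cd3, by leaving out members rich in RNA of other lineages, and by leaving out the 5% of members with most UMIs. The cells were classed by heavy chain if they had at least 3 such UMIs. The interval of a B over T ratio of ratios came from the delta method. The alternatives were other limits for membership, other cell filters, TMM factors (edgeR 4.0.16, R 4.3.3), the median of ratios, a total without abundant genes, other gene filters and a 2-fold rule. Python 3.11.15 with numpy 2.4.6, scipy 1.17.1 and matplotlib 3.10.9 was used, and the steps were tested on simulated counts. Promoter sequences are those of RefSeq on GRCm38.p6, and 7 of the 10 heat shock genes matched.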

Additional observations from a re-analysis of the deposited data

Results flagged for a closer look

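C1qa had a ratio of IR over control of 8.80 in B-cells (14 and 106 UMIs) but of 0.333 in T cells (62 and 39 UMIs), so the 2 cell types lay on opposite sides of 1. The difference was not tested, since there was 1 library per condition. A single IR B-cell held 75 of the 106 UMIs, and without members rich in RNA of other lineages the B-cells had 5 UMIs in each library.

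Cells with at least 5 Jchain UMIs, which lie outside the B-cells compared, numbered 36 in the IR and 6 in the control library. The 36 IR cells had a median of 5724.5 UMIs and held 257029 CPM of Igkc, 75371 CPM of Ighm, 40631 CPM of Jchain and 14.3 CPM of Ighd.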

How the results depend on the processing

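No paired analysis was possible because each condition had 1 library, and no replicate could be left out. The share of B-cells in IR over control (0.615) was 0.700 without a mitochondrial limit and 0.705 with cells thinned to 1000 UMIs. Over B-cells, T cells and cells high in Jchain alone it was 0.545. The B-cells per T cell (0.409) came to 0.473 without that limit and 0.360 after thinning. Both stayed below 1 under every alternative run. The lambda share (8.57% and 12.5%) was 7.73% in the control at a limit of 10%, 7.38% and 11.2% without a limit, 7.37% and 11.4% without the 5% of members with most UMIs, and 9.08% and 14.0% after thinning. The class Ighm (74.8% and 80.6%) took 70.6% and 75.8% of cells with at least 1 heavy chain UMI and 89.3% and 95.9% of those with at least 10. The IR value stayed above the control value in each of these. The counts of genes higher and lower (394 and 125) were 178 and 260 with TMM factors, 207 and 221 with the median of ratios, 1523 and 486 at 20 UMIs per gene, 186 and 73 at 200 UMIs, and 60 and 25 at 2-fold. The gene filters change how many genes are counted, and the 2-fold rule is stricter by construction; for the others the cause was not tested.

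Of 2772 values for 231 genes and lists under 12 alternatives, 2468 were classed as unchanged, 297 as moved and 7 as turned. Genes were unchanged within their counting interval, and lists if their median kept its place relative to the limits of 1.5 times. A turn across 1 was classed as such only where the main value was past 1.5 times. Smaller turns are not among the 7. With TMM factors, for example, the median of MHC class II went from 1.07 to 0.953 and that of MHC class I from 1.04 to 0.928. The 7 turned values follow. Without a mitochondrial limit Dcpp2 had a ratio of 3.36, Dcpp3 of 2.77, Klk1 of 5.35 and Hspa1b of 1.04. Wfdc18 was at 1.06 without the 5% of members with most UMIs. Without members rich in RNA of other lineages, an alternative chosen after seeing the data, the acinar gene Prol1 was at 0.984, and at 0.981 with abundant genes also left out of the total. The cause was not tested. Genes at least 2 times as high in B-cells as in T cells numbered 388 to 467 (395 in the text), and those with differing ratios 269 to 366 (296). With 1 pool of 2 mice per condition, depth limits only the counting error; the spread between mice is unknown.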

Other observations

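Genes from the lists of rare B-cell states were also counted together in single cells, which does not by itself assign a cell to a state. UMIs of at least 2 of the 7 B-1 genes were found together in 12 control B-cells (1.55%, 0.806 to 2.699) and 24 IR B-cells (3.23%, 2.08 to 4.77). These cells had medians of 6604 and 3846.5 UMIs, against 2538.5 and 2172 in all B-cells. The 7 genes are not particular to B-cells. They summed to 52.0 and 99.0 CPM in B-cells and to 384 and 481 CPM in T cells. UMIs of at least 2 of the cycling genes Mki67, Top2a, Birc5 and Ube2c were found in 2 control and 6 IR B-cells, of which 1 and 2 also held at least 2 germinal centre genes. Ciita, the activator of MHC class II genes, had 31 and 67 UMIs, too few for the limit of 100, in 30 and 60 cells, and the lymphotoxin gene Lta had 2 and 11 UMIs. In IR B-cells without members rich in other RNA, Stmn1, a gene of dividing cells, stood at 66.9 CPM in cells with Ighd and 123 CPM in cells with Ighm only (1.84, 1.27 to 2.64), against 91.4 and 84.9 CPM in the control (0.930, 0.618 to 1.37).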
